A study of Mus musculus with 6 samples.

Results

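The genes of the constitutive proteasome, the protease that degrades ubiquitin-tagged proteins in every cell, were compared between young and aged mouse kidney. Members were chosen by symbol alone: Psma followed by a number, Psmb1 to Psmb7, Psmc followed by a number and Psmd followed by a number, found through the RefSeq transcript that each array probe names. This rule uses no measured value, but the set was chosen with earlier results of these data known. It gave 35 genes of the 20284 with a named probe, 15 of the core particle and 20 of the regulatory particle, read by 43 probes. Of the 35 genes, 34 were well above background on every array of at least 1 age and were tested, 14 core and 20 regulatory. The remaining gene was Psma8.

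RNA came from whole kidneys of male mice of the inbred strain C57BL/6, at 2 months (young) and 20 months (aged) of age, and no genotype, transgene or treatment is named for either age. Each age had 3 samples, hybridised 1 to an array on Agilent single-colour arrays. The labels describe the 3 as independent sets of RNA, without stating if the sets are different mice, and p-values therefore rest on a spread that may be technical in part. All 6 arrays lay on 1 slide, the young arrays in row 1 and the aged arrays in row 2, and the effects of age and of slide row therefore cannot be told apart. Each replicate number was 1 slide column. The 75th percentile of the processed signal was 4366, 4061 and 2892 on young and 4498, 4205 and 2702 on aged replicates 1, 2 and 3. The share of probes well above background was 72.9%, 69.0% and 55.3% in young and 62.8%, 55.7% and 46.3% in aged samples. It was lower in the aged sample of each column, and both measures fell from column 1 to column 3. Arrays correlated at 0.989 to 0.993 within an age and at 0.977 to 0.987 between ages over the tested genes, which are not independent replicates. All 11 kidney tubule and glomerulus markers were well above background on all 6 arrays. The RNA is of bulk tissue, in which fewer cells of a type and less RNA per cell cannot be told apart.

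The proteasome is a barrel-shaped core capped by a regulatory particle. The outer rings of the core are made of alpha subunits, which gate the entrance, and the inner rings of beta subunits, of which Psmb5, Psmb6 and Psmb7 carry the proteolytic sites. The regulatory particle has a base, whose Psmc subunits form a ring of ATPases that unfolds the substrate, and a lid, whose subunit Psmd14 removes the ubiquitin chain. Immune cells and cells exposed to interferon exchange the catalytic subunits for Psmb8, Psmb9 and Psmb10. Nfe2l1, a transcription factor that is activated when proteasome function is impaired, induces the subunit genes together through antioxidant response elements in their promoters. In the kidney, reabsorbing tubule cells take up and break down large amounts of protein, mainly in lysosomes, and rely on the proteasome for turnover of their own cytosolic proteins.

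Promoter sequence from RefSeq (build GRCm38.p6) was matched by symbol for 28 of the 35 genes, in 30 windows that run from 250 bases before the start site to 50 after it. The core letters of the antioxidant response element, TGACNNNGC on either strand, were found in 5 of the 30 windows (16.7%), against 12.4% of all 32851 windows of this length. The stricter form TGACTCAGC was found in 0 of the 30 and in 0.454% of all windows. CCAAT, the letters bound by NF-Y, was in 11 of the 30 (36.7%), against 37.4% of all. GGGCGG, the letters bound by Sp1, was in 18 of the 30 (60%), against 35.7% of all, with 5 of 12 core windows and 13 of 18 regulatory ones. The member windows had a median GC content of 55.8% and all windows 52.7%. These matches are descriptions of letters, and no binding was measured. The sequences that follow hold the TGACNNNGC match, in capitals, of both catalytic subunits that had one and of the chaperone gene Psmd9, each printed 5′ to 3′ on the gene's strand. They lie at chr14:54618008-54618068 (minus strand), chr11:70525322-70525356 (plus) and chr5:123228133-123228189 (plus), and the first base of the match is 47, 9 and 31 bases before the start site.
Psmb5: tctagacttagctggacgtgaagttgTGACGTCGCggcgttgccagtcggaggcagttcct
Psmb6: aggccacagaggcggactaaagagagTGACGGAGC
Psmd9: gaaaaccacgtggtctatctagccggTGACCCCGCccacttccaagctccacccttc

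Psma2, Psma5, Psma6 and Psmb4 are 4 of the 5 genes whose young and aged arrays did not overlap in the measurements given further on, and the 100 bases before their start sites are shown for that reason. Psmd3, the fifth, had no matched window. Those 5 genes are 14.7% of the tested members, where 21.9% of all genes tested did not overlap. The windows lie at chr13:14613142-14613241 (plus), chr3:108256826-108256925 (plus), chr12:55384122-55384221 and chr12:55398725-55398824 (both plus, for separate Psma6 start sites) and chr3:94886959-94887058 (minus). Capitals mark CCAAT, and GGGCGG was in none of these stretches on either strand.
Psma2: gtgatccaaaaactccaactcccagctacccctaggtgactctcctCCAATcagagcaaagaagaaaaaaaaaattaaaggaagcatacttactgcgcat
Psma5: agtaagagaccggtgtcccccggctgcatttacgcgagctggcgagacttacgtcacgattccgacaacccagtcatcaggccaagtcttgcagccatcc
Psma6, upstream start: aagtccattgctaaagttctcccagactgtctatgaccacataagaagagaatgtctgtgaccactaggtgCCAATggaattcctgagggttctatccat
Psma6, downstream start: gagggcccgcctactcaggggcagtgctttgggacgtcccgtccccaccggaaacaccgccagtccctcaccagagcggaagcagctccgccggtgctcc
Psmb4: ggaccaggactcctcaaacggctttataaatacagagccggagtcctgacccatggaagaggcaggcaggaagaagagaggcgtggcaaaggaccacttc
The stretches differ in composition, from 42% GC before Psma2 to 70% before the downstream start of Psma6. CCAAT stood before Psma2, whose aged arrays were the higher ones, and before the upstream start of Psma6, whose aged arrays were the lower ones. The change of Psma2 was below its standard error, and a relation of these letters to direction was not tested.

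None of the 34 tested subunit genes passed the test between 2 and 20 months. All values are log2 signal minus the array's 75th percentile, and a change is aged minus young with its moderated standard error. Limma called 0 of 34 members at an adjusted p of 0.05, where 3.38% of all 14548 genes tested were called (288 higher and 203 lower in aged kidney). At an unadjusted p under 0.05 there were 2 members, Psma6 and Psmb4, both lower in aged kidney, beside 17.1% of all genes. That share was smaller among the 5007 genes within the members' range of mean signal, where 160 were higher and 189 lower at this level. Of the 34 members, 19 had a change above 0 and 15 below, beside 6863 above and 7685 below over all genes tested. The core particle split into 7 above and 7 below, with a median of 0.0022 and a range of -0.29 to 0.15. The regulatory particle had 12 above and 8 below, with a median of 0.03 and a range of -0.23 to 0.13. The median over all genes tested was -0.01. The split moved with the setting, from 12 members above 0 without aged replicate 3 to 24 with each array centred on its median.

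The intervals give how large a change between these arrays could have been, under the spread within an age. That spread may be technical in part, and age and slide row coincide, so they set no bound for age alone. They are not adjusted for the number of genes. For 33 of the 34 members the 95% interval of the change lay within 1.5-fold in either direction, and for all 34 it lay within 2-fold. Over all genes tested the shares were 67.5% and 89.5%. The exception was Psmd2, a base subunit that docks substrate carriers, whose interval ran from 0.649-fold to 1.16-fold. At the upper end, the highest limit of any member was 1.33-fold, for Psmb6. Over the 17 alternative settings, 27 to 34 members stayed within 1.5-fold and the same 34 within 2-fold.

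Members are among the genes with high signal, at percentiles 63.1 to 97.5 of mean signal (median 91.7), and signal bears on precision. The median absolute change was 0.0514 over the members, 0.0475 for the core and 0.0538 for the regulatory particle. It was 0.144 over all genes and 0.0973 over the 5007 genes in the members' range of mean signal, of which 38 were called (23 higher and 15 lower). In that range 89.1% of genes had an interval within 1.5-fold and 98.9% within 2-fold. The range runs from the dimmest to the brightest member, while the median member sat near its upper end. Its genes are therefore not matched to the members in signal. Ribosomal protein genes, another set of housekeeping complex subunits, had a median absolute change of 0.061 over 81 tested genes, with 0 called. The median SD within an age was 0.102 for members, 0.130 for genes in their signal range and 0.134 for ribosomal protein genes.

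**Figure D1:**
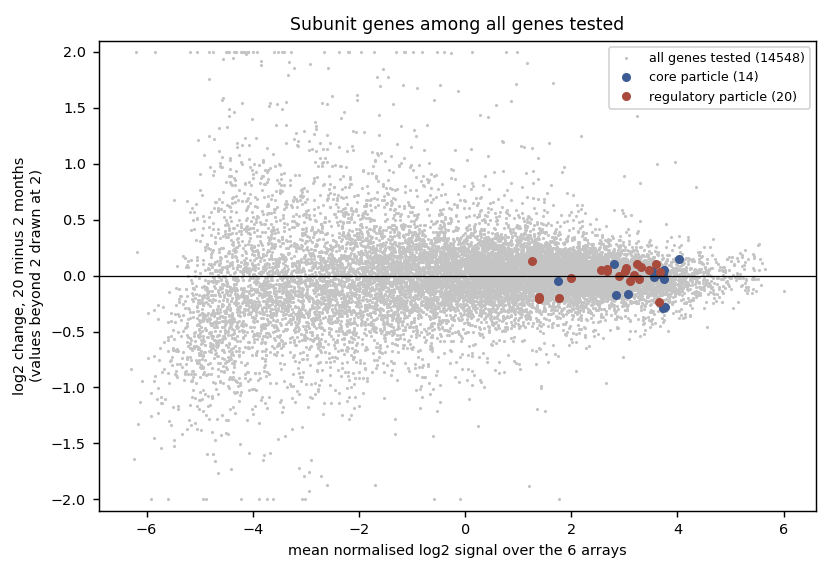
The log2 change from 2 to 20 months is plotted against the mean normalised log2 signal over the 6 arrays for all 14548 genes tested (grey), with the 14 core genes in blue and the 20 regulatory genes in red; changes beyond 2 are drawn at 2. The members lie between 1.27 and 4.03 on the signal axis and between -0.29 and 0.15 on the change axis.

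Young and aged arrays did not overlap for 5 of 34 members (14.7%), where 21.9% of all genes tested and 16.2% of genes in the members' signal range did not overlap. Aged arrays were lower for Psma5, Psma6, Psmb4 and Psmd3 and higher for Psma2. By particle the counts were 4 of 14 core genes and 1 of 20 regulatory genes. The difference between the particles in this count was not tested.

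**Figure D2:**
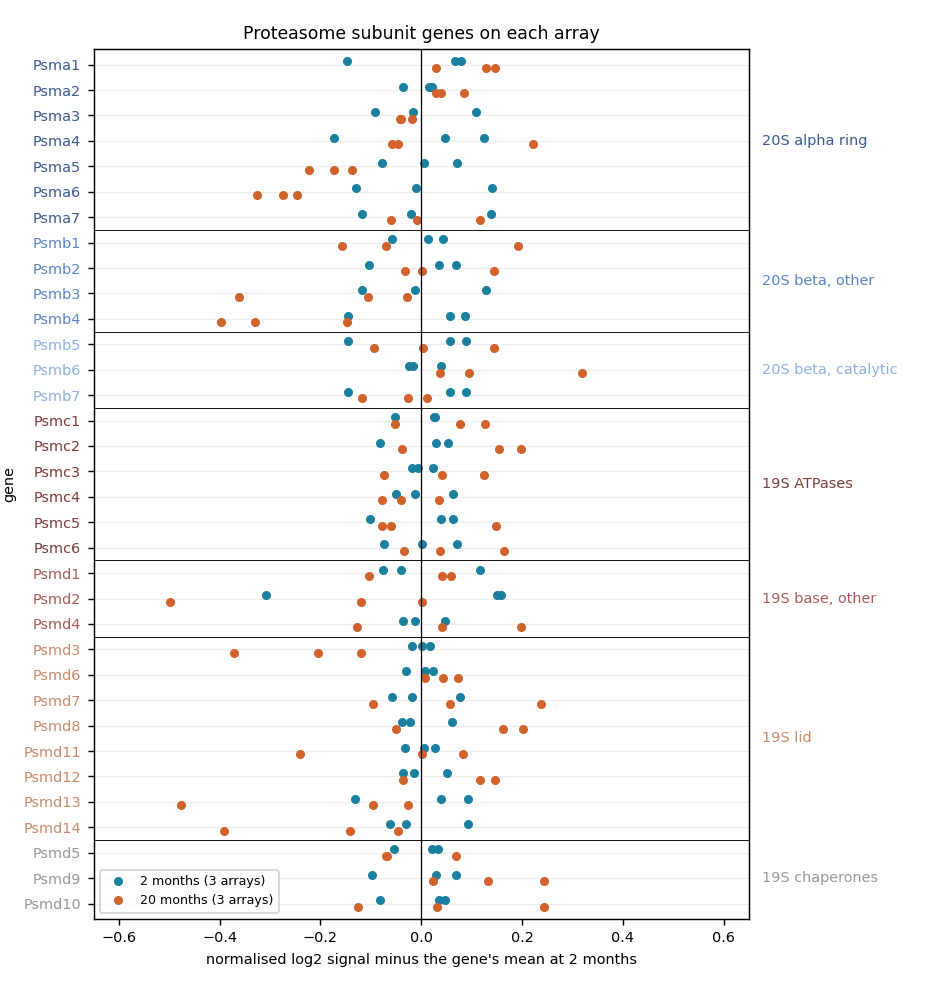
Each row is a subunit gene and each point an array, drawn as normalised log2 signal minus the gene's mean at 2 months, with 3 young (blue) and 3 aged (orange) points per gene and genes grouped by role. The points of both ages interleave for 29 of the 34 genes, and the aged points lie apart to the left for Psma5, Psma6, Psmb4 and Psmd3.

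The alpha ring had 7 tested genes, 4 with a change above 0 and 3 below, and a median of 0.02. Psma6, the alpha-1 subunit, read 3.77, 3.89 and 4.04 in young and 3.65, 3.62 and 3.57 in aged kidney. Every aged array lay below every young one, and the young values were spread more widely (SD 0.14) than the aged ones (SD 0.04, n = 3 each). The change was -0.28 ± 0.11, 0.822-fold, with a limma adjusted p = 0.247 over all genes (0.0349 before adjustment). Groups without overlap fix the sign within each slide column, and the aged array was lower by 0.12, 0.26 and 0.47 in columns 1, 2 and 3. Psma5, the alpha-5 subunit, read 2.86, 3.01 and 2.94 in young and 2.80, 2.76 and 2.71 in aged kidney. All aged values again lay below the young ones, and the change was -0.18 ± 0.10 with a limma adjusted p = 0.424.

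Psma2, the alpha-2 subunit, was the 1 member with all aged arrays above the young ones, at 3.68, 3.73 and 3.74 against 3.75, 3.76 and 3.80. The groups were separated by little, and the change of 0.05 ± 0.10 was below its standard error (limma adjusted p = 0.842). The other tested alpha subunits, Psma1, Psma3, Psma4 and Psma7, overlapped between the ages, with changes of 0.10, -0.03, 0.04 and 0.02. Psma8 encodes the alpha-4 variant of the testis. Its single probe was well above background on 1 array, young replicate 1. The signal was -6.65, -8.40 and -7.42 in young and -7.50, -6.14 and -6.36 in aged kidney, where the lowest signal well above background on an array ran from -7.06 to -4.62. No fold is given for a gene that was not well above background.

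Among the beta subunits without a proteolytic site, Psmb1 to Psmb4, 1 change was above 0 and 3 below, with a median of -0.09. Psmb4, the beta-7 subunit, had the lowest change of any member. It read 3.95, 3.92 and 3.72 in young and 3.72, 3.47 and 3.54 in aged kidney. The aged arrays lay below the young ones by a small margin, since young replicate 3 and aged replicate 1 both round to 3.72. The change was -0.29 ± 0.12, 0.817-fold, with a limma adjusted p = 0.270 over all genes (0.0421 before adjustment). Within slide columns, where the lack of overlap fixes the sign, the aged array was lower by 0.23, 0.46 and 0.19. Psmb3, the beta-3 subunit, read 3.04, 3.15 and 3.28 in young and 3.05, 2.79 and 3.13 in aged kidney. Its low value was on aged replicate 2 and the other aged arrays lay among the young ones, with a change of -0.17 ± 0.13 and a limma adjusted p = 0.568. Psmb1 and Psmb2 overlapped, with changes of -0.01 ± 0.12 and 0.04 ± 0.11.

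The catalytic subunits showed 2 changes above 0 and 1 below. Psmb6, the beta-1 subunit with caspase-like activity, read 3.94, 3.93 and 3.99 in young and 3.99, 4.05 and 4.27 in aged kidney. Young replicate 3 and aged replicate 1 overlapped, and aged replicate 3 stood highest. The change was 0.15 ± 0.11, 1.11-fold, the highest of any member, with a limma adjusted p = 0.555. Psmb7, the beta-2 subunit with trypsin-like activity, read 1.63, 1.86 and 1.83 in young and 1.79, 1.66 and 1.75 in aged kidney. The aged arrays lay inside the young range, with a change of -0.04 ± 0.11 and a limma adjusted p = 0.884. Psmb5, the beta-5 subunit with chymotrypsin-like activity, read 3.77, 3.81 and 3.57 in young and 3.72, 3.62 and 3.86 in aged kidney, a change of 0.02 ± 0.12 with overlapping groups. The RefSeq annotation names 6 pseudogenes of members, those of Psma5, Psmb5, Psmb6 and Psmb7. Whether the probes also read those copies was not tested.

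By the brightest probe of each gene, the ATPase ring of the base was the role with the narrowest range, from -0.03 to 0.10. Of its 6 genes, 5 were above 0, with a median of 0.04. The dimmer Psmc3 probe, given further on, lay outside that range at -0.14. Psmc2 read 3.47, 3.60 and 3.58 in young and 3.51, 3.70 and 3.75 in aged kidney. Aged replicate 1 lay inside the young range and the other aged arrays above it, with a change of 0.10 ± 0.11 and a limma adjusted p = 0.690. Psmc6 read 2.66, 2.72 and 2.58 in young and 2.62, 2.82 and 2.69 in aged kidney, which overlapped, and its change was 0.06 ± 0.11 (limma adjusted p = 0.846). Psmc1, Psmc3, Psmc4 and Psmc5 had changes of 0.05, 0.03, -0.03 and 0.0030. For Psmc4 the aged array was lower by 0.03 in each of the 3 slide columns, less than its SD of 0.06 within either age.

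The non-ATPase base subunits are the scaffold proteins Psmd1 and Psmd2 and the ubiquitin receptor Psmd4. Psmd2 read 1.19, 1.66 and 1.65 in young and 1.38, 1.00 and 1.4998 in aged kidney. Its lowest array was aged replicate 2, but young replicate 1 lay below the other aged arrays. The change of -0.21 ± 0.18 had the widest interval of any tested member (limma adjusted p = 0.617). Psmd4 read 3.04, 2.98 and 2.96 in young and 2.86, 3.03 and 3.19 in aged kidney, so that the aged arrays lay on both sides of the young ones, and the change was 0.04 ± 0.12 (limma adjusted p = 0.908). Psmd1 had a change of -0.00088 ± 0.11, the smallest of all members in size.

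The lid had 4 genes above 0 and 4 below, with a median of -0.01. Psmd3, a structural lid subunit, read 3.77, 3.79 and 3.76 in young and 3.65, 3.40 and 3.57 in aged kidney. All aged arrays lay below the young ones, which lay within a narrow range (SD 0.02, against 0.13 in aged kidney, n = 3 each). The change was -0.23 ± 0.11, 0.851-fold, with a limma adjusted p = 0.325 over all genes (0.0647 before adjustment). Within slide columns the aged array was lower by 0.12, 0.39 and 0.19, a sign that the lack of overlap fixes. Psmd14, the deubiquitinase of the lid, read 1.46, 1.43 and 1.58 in young and 1.35, 1.45 and 1.0996 in aged kidney. Aged replicate 2 overlapped the young arrays, and the change was -0.19 ± 0.12 with a limma adjusted p = 0.484. Psmd13 had a change of -0.20 ± 0.15, with the low value on aged replicate 2 (1.39, against 1.77 and 1.84 on the other aged arrays). The other lid genes, Psmd6, Psmd7, Psmd8, Psmd11 and Psmd12, overlapped, with changes from -0.05 for Psmd11 to 0.10 for Psmd8.

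Psmd5, Psmd9 and Psmd10 carry subunit symbols but encode chaperones that help assemble the base and leave before the complex is finished. Psmd9 read 1.27, 1.23 and 1.103 in young and 1.22, 1.33 and 1.44 in aged kidney, which overlapped at aged replicate 1, with a change of 0.13 ± 0.11 and a limma adjusted p = 0.598. Psmd10 read 2.57, 2.56 and 2.44 in young and 2.40, 2.77 and 2.56 in aged kidney, with aged arrays on both sides of the young ones, a change of 0.05 ± 0.12 and a limma adjusted p = 0.883. Psmd5 had a change of -0.02 ± 0.10.

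**Figure D3:**
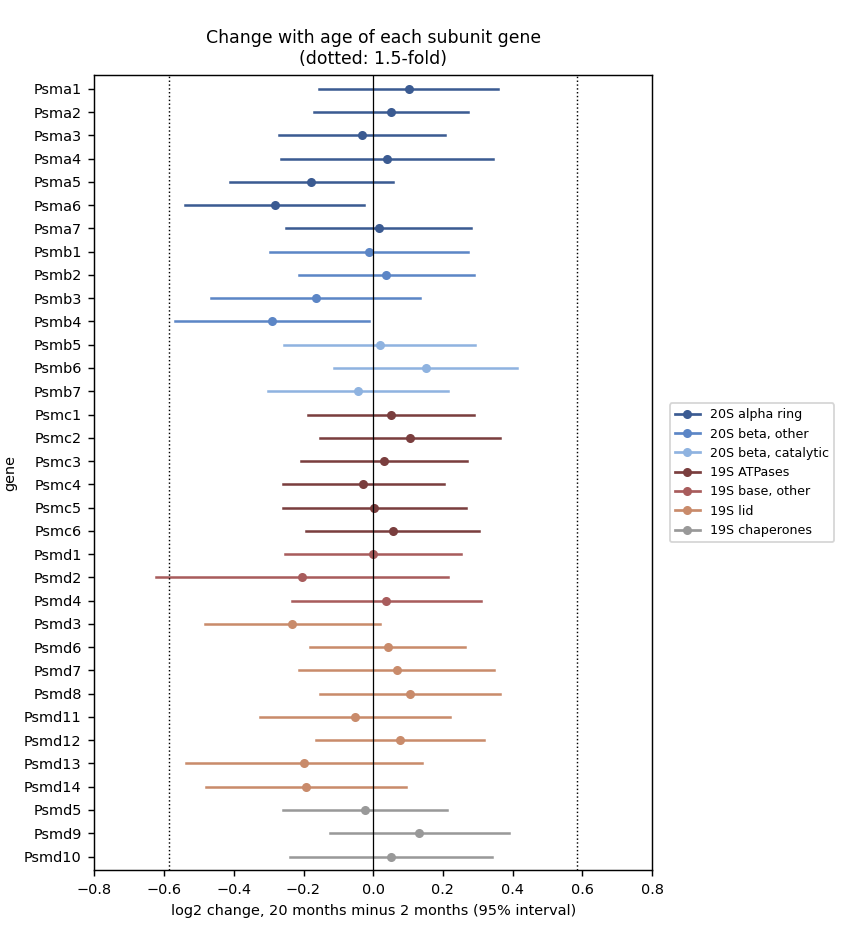
The log2 change from 2 to 20 months is shown for each of the 34 tested subunit genes with its 95% interval from limma, coloured by role, with dotted lines at 1.5-fold in either direction. Only the interval of Psmd2 reaches past a dotted line, and 2 intervals, those of Psma6 and Psmb4, leave out 0 before adjustment.

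For 8 of the members, a second probe assigned to the same gene gives another measure. Where on the transcripts the probes lie was not examined. Tested as single probes, 0 of the 42 member probes were called by limma, where 2.09% of 30825 probes were called. The smallest adjusted p of a member probe was 0.310. An unadjusted p under 0.05 was seen for 1 member probe, and no share over all probes is given for that level. The changes of the paired probes had the same sign for 4 genes (Psmc1, Psmc2, Psmd9 and Psmd10) and opposite signs for 4 (Psma4, Psmb5, Psmc3 and Psmd12). The gap between the probes of a gene was 0.0388 to 0.203, with a median of 0.104.

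Standard errors and adjusted p-values of these pairs come from the limma fit over single probes. For Psma4, the alpha-3 subunit, the probes lay farthest apart. The brighter probe read 3.54, 3.62 and 3.32 in young and 3.45, 3.72 and 3.44 in aged kidney, a change of 0.04 ± 0.14 (limma adjusted p = 0.914). The dimmer probe read 2.69, 2.86 and 2.85 in young and 2.65, 2.67 and 2.60 in aged kidney. Its groups did not overlap, and its change was -0.16 ± 0.11 (limma adjusted p = 0.502).

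For the ATPase gene Psmc3 the brighter probe read 3.64, 3.67 and 3.63 in young and 3.57, 3.69 and 3.77 in aged kidney, a change of 0.03 ± 0.11 (limma adjusted p = 0.915). The dimmer probe read 3.54, 3.63 and 3.76 in young and 3.55, 3.34 and 3.61 in aged kidney, a change of -0.14 ± 0.13 (limma adjusted p = 0.618). The ages overlapped for both, with aged replicate 2 lowest on the dimmer probe and inside the range of the other aged arrays on the brighter.

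The lid gene Psmd12 read 3.27, 3.33 and 3.25 in young and 3.25, 3.40 and 3.43 in aged kidney on its brighter probe, a change of 0.08 ± 0.11 (limma adjusted p = 0.773). Its dimmer probe read 2.16, 2.28 and 2.46 in young and 2.22, 2.24 and 2.27 in aged kidney, a change of -0.06 ± 0.12 (limma adjusted p = 0.856). On the dimmer probe the aged arrays lay inside the young range. Psmb5, whose brighter probe is given with the catalytic subunits (0.02 ± 0.12, limma adjusted p = 0.959), read 3.63, 3.75 and 3.78 in young and 3.64, 3.57 and 3.78 in aged kidney on its dimmer probe. That change was -0.06 ± 0.11 (limma adjusted p = 0.840), with overlapping groups. For Psmd9 both probes were above 0, at 0.13 and 0.33, and for its dimmer probe the limma adjusted p over single probes was 0.397. The genes Psma5, Psma6, Psmb4 and Psmd3, whose aged arrays all lay below the young ones, each have 1 probe on 1 spot, so no second probe bears on them.

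**Figure D4:**
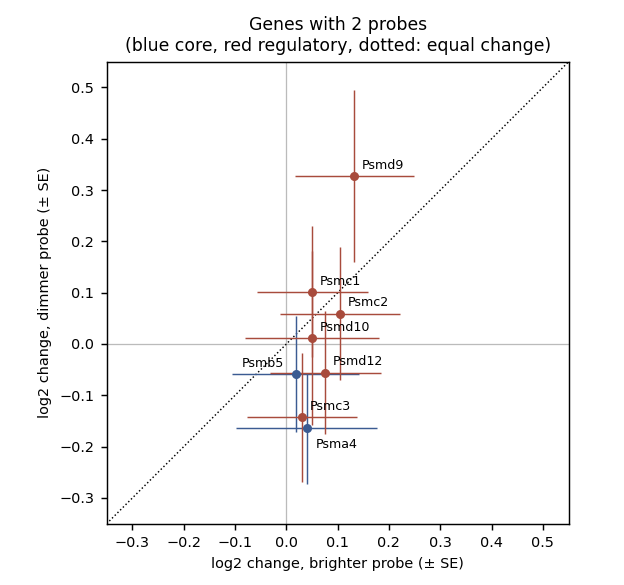
For the 8 genes with 2 tested probes, the log2 change of the dimmer probe (vertical axis) is plotted against that of the brighter probe (horizontal axis), with bars of 1 standard error and a dotted line of equal change. Psma4, Psmb5, Psmc3 and Psmd12 fall below 0 on the axis of the dimmer probe and above 0 on that of the brighter, and Psmd9 and Psmc1 lie above the line.

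The particles were also followed over the arrays. The core genes had a median of 3.54, 3.68 and 3.59 in young and of 3.53, 3.56 and 3.61 in aged kidney, with an SD within an age of 0.057. The median of the regulatory genes was 2.98, 3.02 and 2.99 in young and 2.88, 3.04 and 3.16 in aged kidney, with an SD of 0.102. The aged arrays thus lay on both sides of the young ones for the regulatory genes and inside or just below their range for the core genes. Of the 34 members, 13, 25 and 17 lay above their age mean on young replicates 1, 2 and 3, and 10, 18 and 24 on aged replicates 1, 2 and 3.

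Compared within slide columns 1, 2 and 3, the median change of the core genes was -0.02, -0.14 and 0.07 and that of the regulatory genes -0.04, 0.05 and 0.10. The median over all genes was -0.03, -0.02 and 0.02 in those columns. Column 1 had 16 of the 20 regulatory genes below 0 and column 3 had 13 above 0, so no column direction held for the particle.

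After each age mean was removed, the mean correlation between pairs of genes over the 6 arrays was 0.255 within the regulatory particle (190 pairs), 0.099 within the core particle (91 pairs) and 0.117 between the particles. It was 0.138 among 4985 genes in the members' signal range. These values share the same arrays and their brightness, and describe 6 arrays only.

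The other genes of the pathway were read from lists of the same system, and limma called 0 members in each of them. Of the 5 immunoproteasome and PA28 genes, all had a change above 0, with a median of 0.06 and 2 unadjusted p-values under 0.05. Psmb9 read 0.84, 0.99 and 1.12 in young and 1.46, 1.42 and 1.08 in aged kidney. Aged replicate 3 overlapped the young arrays, and the change was 0.34 ± 0.14 with a limma adjusted p = 0.271. Psmb8 read 0.77, 1.01 and 1.07 in young and 1.36, 1.23 and 1.15 in aged kidney, which did not overlap, and its change was 0.29 ± 0.12 (limma adjusted p = 0.276). The other 3, Psmb10 and the PA28 activator subunits Psme1 and Psme2, had changes of 0.05, 0.01 and 0.06.

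Each of these catalytic subunits replaces a constitutive one. The log2 ratio of Psmb8 to Psmb5 was higher in aged kidney by 0.28 (two-sided exact permutation p = 0.2, 0.3 after adjustment over the 3 pairs). For Psmb9 to Psmb6 the difference was 0.19 (exact permutation p = 0.5, adjusted 0.5) and for Psmb10 to Psmb7 it was 0.09 (exact permutation p = 0.2, adjusted 0.3). The smallest p that 3 against 3 arrays allow is 0.1, and the ages overlapped for all 3 ratios. Leukocyte markers were read beside them. All 7 tested of the 9 on the array were above 0, with a median of 0.72, 5 at an unadjusted p under 0.05 and 0 called by limma. Lyz2, a lysozyme of myeloid cells, had a change of 0.93 ± 0.20 (limma adjusted p = 0.0539) and the B-cell receptor gene Cd79b of 0.87 ± 0.20 (limma adjusted p = 0.0692). The log2 of the summed marker signal was 5.27 to 5.45 in young and 5.52 to 5.75 in aged kidney. Most of that sum came from Itgam, which read 4.85 to 5.05 in young and 4.94 to 5.30 in aged kidney, with overlapping ages. The sum therefore mainly follows 1 marker. None of the 9 markers was below background on every array. The part of leukocytes in the immunoproteasome values was not tested.

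**Figure D5:**
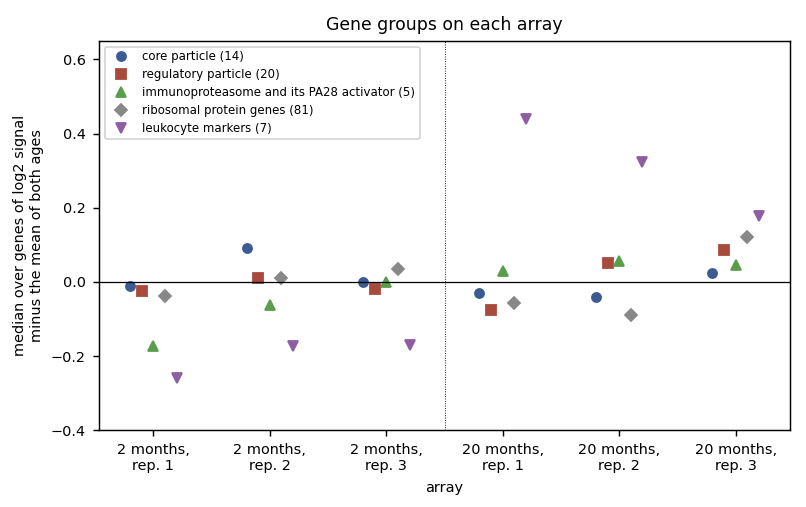
For each of the 6 arrays, points give the median over a gene group of log2 signal minus the gene's mean of both ages, for core, regulatory, immunoproteasome and PA28, ribosomal protein and leukocyte marker genes. The core medians lie between -0.04 and 0.09 and the regulatory medians between -0.07 and 0.09 with both signs at each age, and the leukocyte markers are below 0 on all young arrays and above 0 on all aged arrays.

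Markers of other tissues that a dissected kidney can carry were not called by limma either. Adipoq, an adipocyte hormone, read -0.59, 0.98 and 1.97 in young and 2.68, 2.32 and 2.51 in aged kidney (1.72 ± 0.55, limma adjusted p = 0.160), and Plin1 was 1.29 ± 0.49 (limma adjusted p = 0.230). Upk3a, of the bladder and renal pelvis lining, was high on young replicate 1 alone (1.03, with -3.10 to -4.94 on the other arrays). Of the adrenal and epithelial markers, Star stood well above background on 2 arrays, Krt5 on 4 and Cyp11b1 on 0. The part of these tissues in the subunit values was not tested.

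Among the transcription factors, Nfe2l1 had a change of 0.01 ± 0.16. Its relative Nfe2l2, the factor of the oxidative stress response, read 1.86, 1.77 and 1.62 in young and 2.07, 1.90 and 2.35 in aged kidney. These did not overlap, and the change was 0.35 ± 0.14 with a limma adjusted p = 0.256. Maff, a small partner protein of both factors, had a change of 0.52 ± 0.20 (limma adjusted p = 0.230) with overlapping groups. Of the 8 genes, 7 were above 0, with a median of 0.06.

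Uba1, the main ubiquitin-activating enzyme, read 2.69, 2.75 and 2.68 in young and 2.54, 2.99 and 2.94 in aged kidney. The aged arrays lay on both sides of the young ones, and the change was 0.12 ± 0.14 (limma adjusted p = 0.728).

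Of the assembly chaperones of the core, 3 of 5 were above 0, with a median of 0.02. Psmg4 had a change of 0.16 ± 0.10 without overlap (limma adjusted p = 0.502) and Psmg3 of 0.17 ± 0.19 (limma adjusted p = 0.709). The alternative activators Psme3 and Psme4 had changes of -0.38 ± 0.18 (limma adjusted p = 0.335) and -0.19 ± 0.12 (limma adjusted p = 0.466), and the inhibitor Psmf1 of 0.17 ± 0.12. Psme3 was low on aged replicates 2 and 3 (0.80 and 1.14), while aged replicate 1 (1.52) lay among the young arrays (1.44 to 1.65).

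The list of proteasome-associated and shuttle proteins had 10 of its 13 tested genes below 0 and 3 above, with a median of -0.10. Ube3c, a ubiquitin ligase bound to the proteasome, was lower on every aged array (-0.16 ± 0.11, limma adjusted p = 0.490). Ubqln2, a shuttle protein, had a change of 0.29 ± 0.17 (limma adjusted p = 0.455), fitted without young replicate 2, whose spot had an outlier flag. Ecpas, above background on 3 arrays, was not tested. The segregase p97 and its cofactors had 4 genes above 0 and 5 below, with a median of -0.03. The extremes by p were Faf2 at -0.16 ± 0.11 (limma adjusted p = 0.531) and Nploc4 at 0.15 ± 0.12 (limma adjusted p = 0.597).

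Reference genes of other functions were read in the same way. Of 8 housekeeping genes, 6 were above 0 and 2 below, none was called by limma, and the smallest p belonged to Tbp (0.24 ± 0.12, limma adjusted p = 0.346) and Ppia (-0.29 ± 0.18, limma adjusted p = 0.467). The kidney markers had 3 genes above 0 and 8 below, a median of -0.09 and 0 called. The lowest p in that list was that of Slc12a3, the distal tubule sodium chloride carrier, at 0.37 ± 0.12 (limma adjusted p = 0.180), followed by Slc12a1, the carrier of the thick ascending limb, at -0.25 ± 0.11 (limma adjusted p = 0.318). The aged arrays all lay below the young ones for 4 subunit genes, Psmb4, Psma6, Psmd3 and Psma5. Their changes kept their sign under all 17 alternative settings and passed the threshold under none. The ranges were -0.36 to -0.12, -0.35 to -0.21, -0.29 to -0.12 and -0.22 to -0.13. Without overlap, leaving out an array cannot change the sign, so the choice of these genes fixed that part in advance. Psma2 and overlapping members such as Psmb3, Psmd2, Psmd13 and Psmd14 also kept their sign under all 17.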

How the data were processed

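Total RNA of 6 kidney samples was labelled with Cy3 from random nonamers with Klenow enzyme, per the labels' protocols, so either strand can carry the label. Per the file headers, the arrays, of design 028005, were read with Feature Extraction 11.5.1.1 under protocol GE1_1105_Oct12, and the deposited processed signal intensity was background-subtracted on a linear scale. The log2 values that the authors deposited equal the log2 processed signal minus a constant per array, within 0.001 for 99.78% to 99.84% of probes on each array, and served as an alternative. Their column medians were -3.98, -4.07 and -4.24 in young and -3.98, -4.19 and -4.24 in aged samples.

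Control spots and spots with an outlier flag were left out, spots of a probe were averaged as log2, and each array's 75th percentile was subtracted. A probe was kept if every array of either age read it well above background (30825 of 55681). Symbols came through RefSeq for 26762 probes, and 28919 had none. A gene was read by its brightest probe. Limma (lmFit, eBayes, two-sided) was fitted over all 14548 genes with Benjamini-Hochberg adjustment at 0.05. The members and lists were chosen with earlier results of these data known. Every member is accounted for, with full values for up to 2 genes of the smallest p per role, for genes whose probes disagree in sign, and for up to 2 genes of each other list. A gene that this rule would name is not reported here. Other genes, and the ratios of immunoproteasome to constitutive subunits, were chosen after their values were seen. Mean signal ranked probes and genes for the choice of the brightest probe and of the members' range of signal. It is no measure of relative RNA level between genes.

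The alternatives were quantile normalisation, median centring, normexp (offset 50) with quantile normalisation, the authors' table, no filter, a filter on all 6 arrays, outlier spots included, the average over probes of a gene, robust eBayes with a trend, array weights, a block for the replicate number, and leaving out each array. Normexp used the median spot signal, as no mean was given. The number of arrays limits the precision. Fits used limma 3.58.1 in R 4.3.3 (jsonlite 2.0.0, and data.table at 1.17.8), and figures used matplotlib 3.10.9 and numpy 2.4.6 under Python 3.11.15.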

Additional observations from a re-analysis of the deposited data

How the results depend on the processing

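Under all 17 alternatives limma called 0 core and 0 regulatory genes, and the lowest adjusted p of a member was 0.112, for Psmb4 with array weights. The core median ran from -0.04 to 0.05 and the regulatory median from -0.02 to 0.08. Of 578 member values, 46 changed sign, in 17 members whose changes were at most 0.105 in size. The count over all genes, 491, moved to 800 with median centring (433 higher and 367 lower), 16 with no filter and 782 with array weights. Leaving out 1 array gave 141 to 922: 161, 242 and 238 without young replicates 1, 2 and 3, and 922, 141 and 245 without aged replicates 1, 2 and 3. A block for the replicate number (each number is 1 slide column) gave 266 genes and changed no member's call, with a lowest member adjusted p of 0.291 by limma. Same-numbered samples deviated together with r = 0.06, -0.09 and 0.10, so the numbers were not taken as a pairing. The causes of these moves were not tested. Without the filter Psma8 was fitted from signal mostly below background, with an interval up to 4.74-fold.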
